A study of Homo sapiens with 18 samples.

Results

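The NCI-H460 cell populations compared here, resistant 1 and resistant 2, both resist the combination of decitabine with all-trans retinoic acid (ATRA) per the series design, and both were measured while exposed to it. The comparison was chosen by its labels and holds 6 of the 18 RNA sequencing libraries of the series: 3 replicates of resistant 1 with drugs and 3 of resistant 2 with drugs. NCI-H460 cells are a long-established line from a human large-cell lung carcinoma, wild type in genotype per the labels. Cells were seeded in RPMI-1640 with 10% fetal bovine serum, received ATRA at 2 µM with decitabine at a labelled 50 µM after 24 h and were lysed at 72 h, which is 48 h of exposure. A further 3 groups of 3 libraries are set beside them: resistant 1 with the solvent DMSO (0.7%), resistant 2 with DMSO, and parental cells with the drugs. Parental cells with DMSO, also 3 libraries, entered the fits that use DMSO libraries and the restoration of values described below. How each resistant population was derived, and whether either is 1 clone, is not given in the sources used here, so the contrast is one between 2 cultures of 1 line.

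Decitabine is a cytidine analogue. Cells take it up through nucleoside transporters, phosphorylate it with deoxycytidine kinase and build it into DNA, where it traps DNA methyltransferases and so lowers methylation. Genes kept silent by promoter methylation, such as germline genes of the X chromosome, are known to come on after such loss. ATRA binds the retinoic acid receptors, which then switch on targets that include the receptor gene RARB and enzymes that break retinoids down.

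Levels below are normalized counts, read counts divided by a size factor of the library. The drug-treated table had lost its decimal points, and a gene entered only where the power of 10 of its values could be restored, which was so for 19906 of 25151 genes (79.1%). The restored reads of a resistant 1 library numbered 118216329 to 174346958, and those of a resistant 2 library 111556248 to 132929676. In a principal component analysis of the 9 drug-treated libraries, the first component held 65.8% of the variance. It placed resistant 1 between -18.48 and -6.82, resistant 2 between -99.9 and -88.03 and parental cells between 104.8 and 108. The second component, with 30.7%, placed resistant 1 between -81.42 and -77.6, resistant 2 between 46.24 and 47.6 and parental cells between 31.22 and 32.24. No library stood with another population. The labels call the replicates biological without naming separate cultures, so the p-values measure only the spread between these libraries.

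The populations differed in most of their measured transcripts. With limma on log2(normalized count + 1) and Benjamini-Hochberg adjustment, 58.2% of the 19906 genes passed an adjusted p of 0.05, 5815 of them higher in resistant 1 (29.2%) and 5767 lower (29%). At 10-fold or more, 416 genes were higher (2.09%) and 270 were lower (1.36%). Restoration was less complete where the populations were far apart: it reached 88.8% of genes whose log2 fold change with DMSO was below 1 in size and 66.2% of those at 6 or more, so genes far apart with DMSO are under-represented in these counts and among the leading genes. The log2 fold change of resistant 1 over resistant 2 had a median of -0.0049 over all genes tested, and its absolute size a median of 0.45. In 60.5% of genes all 3 libraries of one population lay beyond all 3 of the other. As in any bulk sample, fewer cells with a transcript and less of it per cell cannot be told apart.

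**Figure D1:**
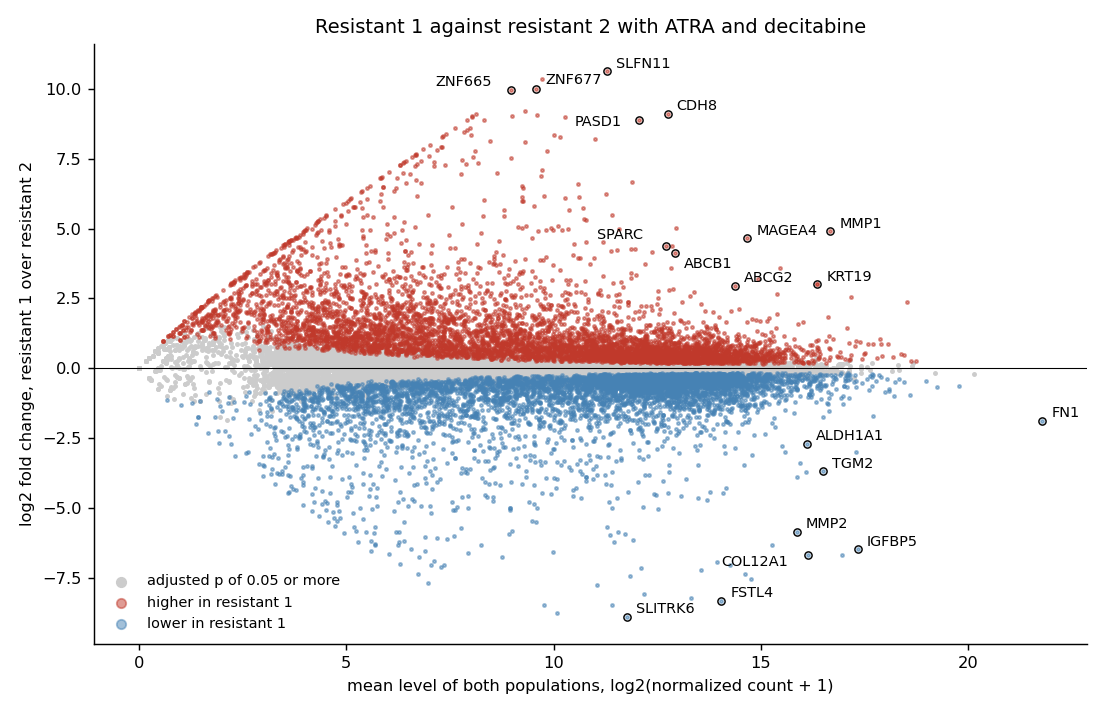
Log2 fold change of resistant 1 over resistant 2 with ATRA and decitabine (y axis) against the mean level of both populations as log2(normalized count + 1) (x axis), with 1 point per gene coloured by its call at an adjusted p of 0.05. Among the labelled genes SLFN11 lies highest at 10.63 and SLITRK6 lowest at -8.89, and FN1 lies furthest right.

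On the log2(normalized count + 1) scale, the largest difference in favour of resistant 1 among restored protein-coding genes with a mean of at least 50 normalized counts was that of SLFN11, a helicase-like protein known for blocking stressed replication forks and for sensitivity to DNA-damaging drugs. The gene lies on chromosome 17 from 35350305 to 35373701 on the minus strand (GRCh38, GENCODE 29). SLFN11 had 5091, 4997 and 4807 normalized counts in resistant 1, against 0, 4.61 and 4.46 in resistant 2. Parental cells with the drugs averaged 5879 ± 130.2 (SD, n = 3), so resistant 2 was the population near 0. The 3 resistant 1 libraries held 15401 SLFN11 reads, against 8 reads in the 3 resistant 2 libraries, a ratio of 1643-fold after scaling with a 95% counting interval of 809.1 to 3694 (exact, counting error only). The fitted log2 fold change was 10.63 ± 0.49 (SE, limma adjusted p = 5.95e-09).

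Zinc-finger genes of chromosome 19 made up most of the other extreme cases. Most encode KRAB zinc-finger proteins, which bind DNA and recruit repressive chromatin, and they sit in clusters. ZNF677 had 1607, 1766 and 1228 normalized counts in resistant 1, against 0, 2.30 and 0 in resistant 2. Its 4653 reads in resistant 1, against 2 reads in resistant 2, gave a ratio of 1998-fold after scaling (95% counting interval 533.2 to 15918), larger than that of SLFN11 and with a wider interval. ZNF665 had 1052, 1036 and 906 normalized counts in resistant 1, against 0, 0 and 0 in resistant 2, at least 277.6-fold higher in resistant 1 against a floor of 3 counts per library. Like ZNF665, the genes ZNF256, ZNF681 and PEG3 had no read in any resistant 2 library. ZNF256 was at least 154.5-fold, ZNF681 at least 144.1-fold and PEG3, an imprinted zinc-finger gene of the same chromosome, at least 146.2-fold higher in resistant 1. Parental levels were not alike across them. ZFP82 averaged 1264 in resistant 1, 1.52 in resistant 2 and 1216 in parental cells. ZNF665 averaged 998 in resistant 1, 0 in resistant 2 and 72.6 in parental cells, and ZNF681 and ZNF736, a zinc-finger gene of chromosome 7, had likewise low parental means of 56.8 and 56.8.

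As a group chosen after the values were seen, 218 genes of chromosome 19 with a zinc-finger symbol were tested, of which 114 were higher in resistant 1 and 33 lower (52.3% and 15.1%). Of all 14077 protein-coding genes tested, 29.8% were higher and 32.1% lower. A difference of 10-fold or more was seen in 44 of the 218 upward and in 0 downward, beside 1.62% and 1.2% of protein-coding genes. On other chromosomes 65 of 270 zinc-finger genes were higher and 98 lower. A stricter count takes protein-coding genes with at most 3 reads in every library of one population and 50 or more normalized counts on average in the other. With reads in resistant 1 there were 34 such genes (0.242% of those tested), 27 of them on chromosome 19 and 26 with a zinc-finger symbol. With reads in resistant 2 there were 12 (0.0852%), with 0 on chromosome 19 and 0 with a zinc-finger symbol. These 12 included the Wnt receptor gene FZD10, the monoamine oxidase gene MAOB, HHIP, an inhibitor of Hedgehog signals, and RSPO2, an enhancer of Wnt signals.

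Because decitabine acts at CG dinucleotides, the promoter windows of 3 extreme genes are shown, each 300 bases around the RefSeq start (GRCh38.p14) with every CG in capitals. SLFN11 and ZNF256 were near 0 in resistant 2 and SLITRK6 had the lowest log2 fold change on the log2(normalized count + 1) scale, and all 3 were picked after their values were seen. The SLFN11 window is chr17:35373572-35373871, that of ZNF256 chr19:57947657-57947956 and that of SLITRK6 chr13:85799370-85799669, all on the minus strand.
SLFN11: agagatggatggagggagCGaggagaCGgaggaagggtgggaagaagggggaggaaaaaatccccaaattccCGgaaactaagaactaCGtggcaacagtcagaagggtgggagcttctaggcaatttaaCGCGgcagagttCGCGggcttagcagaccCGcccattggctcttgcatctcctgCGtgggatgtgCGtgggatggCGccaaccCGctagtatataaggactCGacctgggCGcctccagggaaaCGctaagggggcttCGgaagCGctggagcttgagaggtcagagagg
ZNF256: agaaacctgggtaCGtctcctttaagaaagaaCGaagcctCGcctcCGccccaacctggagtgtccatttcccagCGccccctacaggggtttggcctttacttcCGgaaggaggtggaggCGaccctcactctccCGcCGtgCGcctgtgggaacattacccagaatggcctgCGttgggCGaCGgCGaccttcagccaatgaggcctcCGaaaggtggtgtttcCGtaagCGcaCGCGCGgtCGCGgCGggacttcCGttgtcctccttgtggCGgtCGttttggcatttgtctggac
SLITRK6: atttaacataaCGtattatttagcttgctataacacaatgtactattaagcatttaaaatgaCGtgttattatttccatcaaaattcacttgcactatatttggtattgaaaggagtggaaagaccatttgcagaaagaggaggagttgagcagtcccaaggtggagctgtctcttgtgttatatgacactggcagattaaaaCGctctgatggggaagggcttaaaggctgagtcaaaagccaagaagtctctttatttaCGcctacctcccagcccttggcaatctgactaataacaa
CG, which reads the same on both strands, occurred 18 times in the SLFN11 window, 26 times in that of ZNF256 and 4 times in that of SLITRK6. Of 35116 RefSeq promoter windows of the same length, 44.5% held at least as many as SLFN11, 30.1% at least as many as ZNF256 and 75.5% at least as many as SLITRK6. Methylation was not measured.

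The other leading genes higher in resistant 1 were of several kinds. CDH8, a cadherin of neurons, had 14971, 12886 and 13485 normalized counts in resistant 1, against 22.6, 24.2 and 24.5 in resistant 2. PASD1, a cancer-testis gene of the X chromosome, had 8820.3, 8442 and 8519.7 normalized counts in resistant 1, against 15.9, 17.3 and 18.9 in resistant 2. RNF212, a meiotic recombination factor, averaged 2045 ± 83 in resistant 1 and 5.78 ± 3.13 in resistant 2 (SD, n = 3 each). Leading genes were picked only where the populations did not overlap. In these 3 genes the parental means of 657, 535 and 1066 lay between the populations.

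Among the genes with the largest lower change in resistant 1, SLITRK6, a membrane protein of neurite and inner ear development, had 18.7, 13.4 and 9.95 normalized counts in resistant 1, against 7206, 7446 and 6150.3 in resistant 2 (log2 fold change -8.89 ± 0.20 SE, limma adjusted p = 1.46e-11). THSD7A, a thrombospondin-domain membrane protein, had 3.30, 3.34 and 5.36 normalized counts in resistant 1, against 1748, 2448 and 2346 in resistant 2, and 1335 on average in parental cells. For THSD7A it was thus resistant 1 that stood apart from both other populations. NTRK3, the neurotrophin-3 receptor, had 372, 263 and 252 normalized counts in resistant 1, against 36049, 59451 and 54003 in resistant 2, where parental cells averaged only 85.2. Absence of overlap was a condition for picking these 3 genes. Others of the 12 largest were DAAM2, VWA2, FSTL4, SERPINB11, PDE1A, POSTN, FZD10 and SEMA6D, with log2 fold changes of -8.49 to -7.45. FZD10 had 1 read in resistant 1 and 631 reads in resistant 2.

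**Figure D2:**
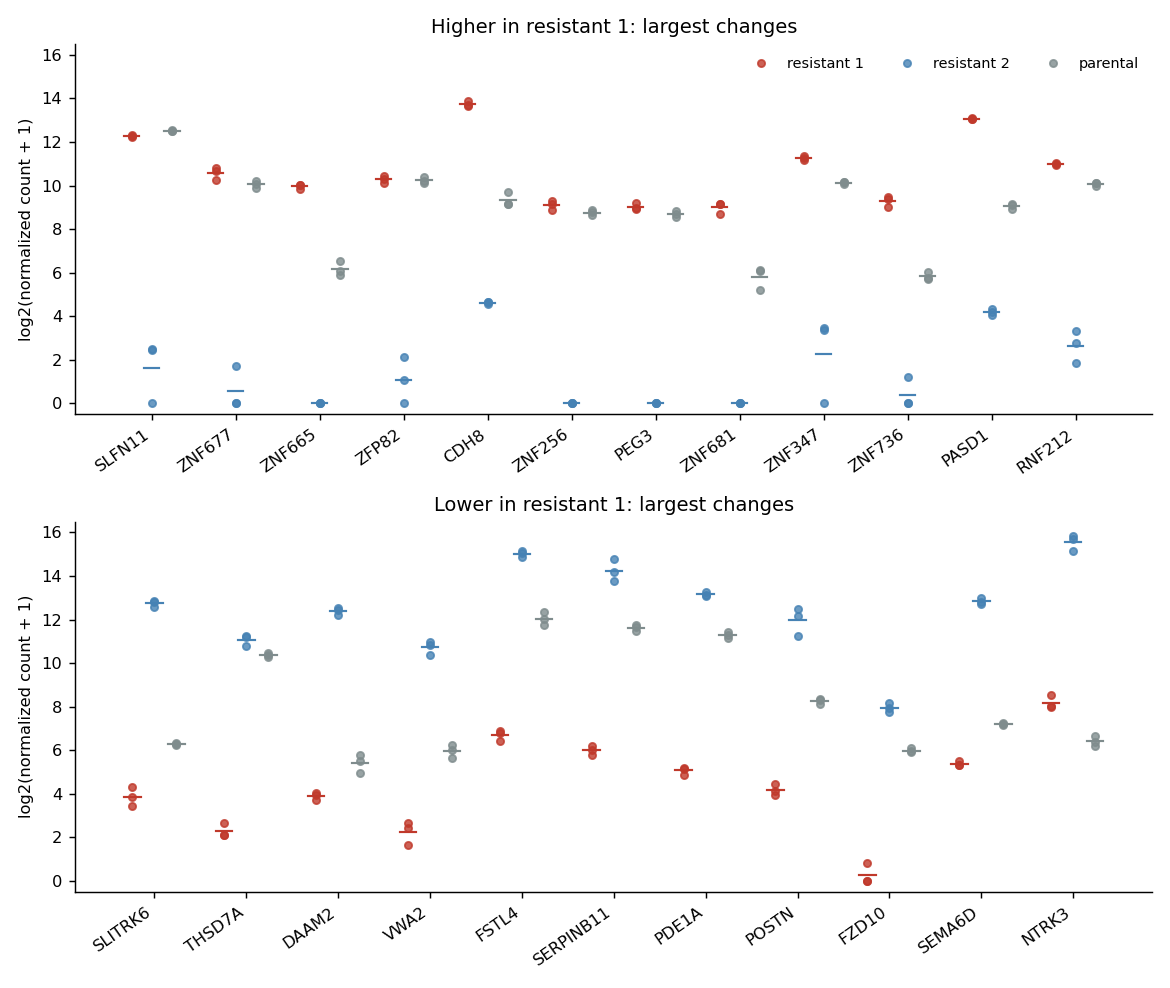
Levels as log2(normalized count + 1) (y axis) of the protein-coding genes reported here from the 12 with the largest higher (top) and lower (bottom) change in resistant 1 with ATRA and decitabine, with 1 dot per library and a bar at the mean of the 3 log2 values, for resistant 1, resistant 2 and parental cells. Resistant 1 and resistant 2 dots lie apart in all of them by the rule that picked the genes. Parental dots lie near resistant 1 for SLFN11 and ZFP82 and near resistant 2 for THSD7A.

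Parental cells with the drugs did not side with 1 population throughout, but in both directions they were more often nearer to resistant 1. Of the 416 genes at least 10-fold higher in resistant 1, the parental mean was nearer to resistant 1 on the log2 scale in 274 (65.9%) and nearer to resistant 2 in 142. Of the 270 genes at least 10-fold lower, it was nearer to resistant 1 in 166 (61.5%) and nearer to resistant 2 in 104.

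Of the genes of decitabine uptake and metabolism 7 of 21 tested members were higher in resistant 1 and 6 lower, so that 61.9% were called, near the 58.2% of all genes. The nucleoside transporter genes SLC29A1, SLC29A2 and SLC28A2 were among the higher ones. SLC29A1, the main equilibrative transporter, through which decitabine enters cells, had 3748, 3949 and 4318 normalized counts in resistant 1, against 1062, 1394 and 1932 in resistant 2 (log2 fold change 1.49 ± 0.17 SE, limma adjusted p = 1.35e-05). Its relative SLC29A2 had 2119, 2085 and 2378 normalized counts in resistant 1, against 486, 517 and 589.6 in resistant 2. The concentrative transporter SLC28A2 was scarce, with 60 reads in resistant 1 and 3 in resistant 2. All 3 were called, and their libraries did not overlap, which held for 60.5% of all genes. RRM2B, a p53-driven subunit of ribonucleotide reductase, was lower, with 39036, 34323 and 31655 normalized counts in resistant 1, against 76204, 90123 and 74823 in resistant 2. The activating kinase gene DCK averaged 4068 ± 333 in resistant 1 and 3267 ± 657 in resistant 2, with overlapping libraries and an adjusted p of 0.0465 (limma). SAMHD1, which hydrolyses deoxynucleotide triphosphates, averaged 8125 ± 549 in resistant 1 and 6165 ± 1736 in resistant 2, also with overlap (limma adjusted p = 0.0329). Without resistant 2 replicate 1 their log2 fold changes were 0.16 and 0.21 (limma adjusted p = 0.144 and 0.0934), and both calls were also lost without other single libraries. CDA, the deaminase that inactivates decitabine, could not be restored; with DMSO it averaged 79.8 ± 10.02 in resistant 1 and 13.8 ± 2.31 in resistant 2.

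Of 15 drug efflux pumps tested 5 were higher and 6 lower, so that 73.3% were called, beside 58.2% of all genes (29.2% higher and 29% lower). ABCB1, the P-glycoprotein pump, had 15052, 14733 and 14353 normalized counts in resistant 1, against 581, 1058 and 981 in resistant 2 (log2 fold change 4.12 ± 0.18 SE, limma adjusted p = 3.03e-09). Its parental mean of 1154 ± 37.5 was close to that of resistant 2. ABCG2, which exports many chemotherapeutics, had 36288, 36155 and 40571 normalized counts in resistant 1, against 3709.8, 4695 and 6462 in resistant 2. ABCA1, a cholesterol exporter, averaged 5622 ± 136 in resistant 1 and 297 ± 20.2 in resistant 2, and 5435 ± 469 in parental cells. ABCB1 was thus high in resistant 1 and ABCA1 low in resistant 2 relative to parental cells. ABCB5 was scarce and lower, with 14 reads in resistant 1 and 85 in resistant 2. The 4 pumps named here were picked by size of change, and the other pumps called lower are not shown. Where the values were restored from a DMSO level averaged over resistant 1, resistant 2 and parental cells, 2 pumps were counted as higher. That restoration covered fewer genes, and over all genes it kept 10222 of the 10236 calls still testable. No gene restored both ways had another value, so the calls kept are no separate check.

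Of the DNA methylation genes 2 of 18 were higher and 9 lower, so that 61.1% were called, near the 58.2% of all genes. DNMT3A, a de novo methyltransferase, had 2169.6, 2227 and 2025 normalized counts in resistant 1, against 4521, 4464 and 4173 in resistant 2 (log2 fold change -1.03 ± 0.08 SE, limma adjusted p = 6.07e-07). The demethylase genes TET2 and TET3 were lower by -0.97 and -0.89 on the log2 scale, and TET1 was higher by 0.91. DNMT1, the maintenance methyltransferase, averaged 14348 ± 766 in resistant 1 and 13317 ± 1909 in resistant 2, and its partner UHRF1 2964 ± 549.6 in resistant 1 and 2379 ± 1105 in resistant 2. Neither passed the test (limma adjusted p = 0.314 and 0.193), but without resistant 2 replicate 3 both did, at log2 fold changes of 0.23 and 0.75 (limma adjusted p = 0.0234 and 0.00138), and 4 members were then higher. DNMT3B averaged 1163 ± 204 in resistant 1 and 1171 ± 122 in resistant 2, a difference whose direction changed with single libraries.

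Germline genes were mostly higher in resistant 1. Of 17 cancer-testis genes tested 13 were higher and 2 lower (median log2 fold change 1.81), and of 14 other germline genes known to be silenced by methylation 8 were higher and 1 lower (median 0.90). The shares of all genes were 29.2% higher and 29% lower. With DMSO 11 of 13 cancer-testis genes were higher and 2 lower (median 4.517). Of 11 other germline genes tested with DMSO 5 were higher and 2 lower (median 0.2649). MAGEA4 had 48413, 49190 and 53483 normalized counts in resistant 1, against 2095, 2006 and 1898 in resistant 2, and 5991 ± 457 in parental cells. SSX1 had 15554, 15761 and 14527 normalized counts in resistant 1, against 391, 516 and 513 in resistant 2. MAGEA11 averaged 2261 ± 91.2 in resistant 1 and 74.8 ± 24.6 in resistant 2, and VCX2 averaged 1676 ± 301 in resistant 1 and 13.1 ± 9.94 in resistant 2. These families hold near-identical copies between which reads may have been split, so the level of a single member is uncertain. PIWIL1, a piRNA-binding Argonaute protein, went the other way, with 8 reads in resistant 1 and 579 in resistant 2. DDX4, a germ cell helicase, had 34.1, 107 and 39.8 normalized counts in resistant 1, against 3.99, 8.06 and 10 in resistant 2, and TEX19, of placenta and germ cells, had 677, 665 and 530.3 normalized counts in resistant 1, against 169, 139 and 138 in resistant 2. Of the listed cancer-testis genes 18 of 40, and of the other germline genes 14 of 31, could not be restored. Under a stricter probability for restored values, 5 cancer-testis genes and 2 other germline genes were counted as higher. Fewer genes met that probability, so that over all genes 8555 of 11582 calls could still be tested. All of these were kept, but the setting refits the same restored values and is no separate check.

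Of 17 genes known to be induced by retinoic acid 12 were lower and 3 higher (median log2 fold change -0.62), so that 88.2% were called, beside 58.2% of all genes (29.2% higher and 29% lower). With DMSO 12 of the 17 were already lower and 0 higher (median -1.225), beside 26% lower and 27.4% higher of all genes. By the test of the difference given below, the contrast was higher with drugs in 4 members and lower in 1, beside 3.27% and 1.55% of all genes. Of 11 retinoid receptors and binding proteins 2 were higher and 4 lower, a called share of 54.55% that is near that of all genes. Of 12 genes of retinoic acid synthesis and breakdown 2 were higher and 6 lower (66.7% called). TGM2, a transglutaminase and classic retinoic acid target, had 10884, 16053 and 13278 normalized counts in resistant 1, against 192200, 160070 and 162440 in resistant 2 (log2 fold change -3.69 ± 0.12 SE, limma adjusted p = 3.33e-10). RARB, a receptor that is itself such a target, had 5067, 5037 and 4776 normalized counts in resistant 1, against 6205, 8789 and 8190 in resistant 2. The 3 resistant 1 libraries were below the 3 resistant 2 libraries in both genes, as in 30% of all genes. RARA was lower by -0.50 and RARG higher by 0.28 on the log2 scale (limma adjusted p = 0.00543 and 0.0307), and RARG stood at 0.18 without resistant 2 replicate 2 (limma adjusted p = 0.12) and lost its call without 4 other single libraries. ALDH1A1, which makes retinoic acid from retinal, averaged 18574 ± 2936 in resistant 1 and 123880 ± 37587 in resistant 2, and 5593 ± 549 in parental cells. RDH10, which makes retinal from retinol, had 9983, 8757 and 9729.5 normalized counts in resistant 1, against 2301, 2449 and 2674 in resistant 2. The enzyme of the first step was thus higher and that of the second step lower in resistant 1. CRABP2, which carries retinoic acid to its receptors, averaged 273 ± 37.5 in resistant 1 and 178 ± 31.1 in resistant 2, both below the 2273 ± 122 of parental cells. CYP26A1 and CYP26B1, which break retinoic acid down, could not be restored.

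Epithelial genes were more often higher in resistant 1, with 16 of 27 genes of epithelial identity and junctions higher and 6 lower (median log2 fold change 0.51), and 6 of 10 keratins higher and 1 lower. Over all genes 29.2% were higher and 29% lower. KRT19, a simple-epithelium keratin, had 126050, 140860 and 183810 normalized counts in resistant 1, against 20228, 15812 and 19778 in resistant 2. CLDN4, a tight junction claudin, had 4258, 4686 and 7060.5 normalized counts in resistant 1, against 179, 78.3 and 113 in resistant 2. CDH1, the E-cadherin gene that defines epithelia, was low in both populations, with 65.9, 65.7 and 52 normalized counts in resistant 1, against 30.6, 39.1 and 56.8 in resistant 2, where parental cells averaged 1402 ± 14.8. Its libraries overlapped, and its call (limma adjusted p = 0.0355) was lost in the fit of the 6 libraries alone (0.113) and without any library other than resistant 1 replicate 3 or resistant 2 replicate 3; without resistant 2 replicate 1 its log2 fold change was 0.36 (0.119). The splicing regulators of epithelia split, as ESRP1 averaged 52 ± 15.9 in resistant 1 and 267 ± 55.9 in resistant 2 and ESRP2 averaged 427 ± 137 in resistant 1 and 58.6 ± 24 in resistant 2. At the stricter restoration, which covered fewer genes, 7 epithelial genes were counted as higher. It kept all 8555 calls over all genes that could still be tested, but it refits the same restored values and is no separate check.

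Mesenchymal and TGF-beta genes were more often lower. Of 26 regulators and markers of the epithelial-mesenchymal transition 16 were lower and 7 higher (median log2 fold change -0.69), and of 25 genes responsive to TGF-beta 18 were lower and 3 higher (median -1.22). The shares of all genes were 29% lower and 29.2% higher. With values restored from a DMSO level averaged over resistant 1, resistant 2 and parental cells, 8 and 11 members of these lists were counted as lower. Fewer genes could be restored that way, and 10222 of the 10236 calls still testable over all genes were kept. Genes restored both ways had the same values, so the calls kept are no separate check. The receptor gene TGFBR2 had 2763, 2471 and 2625 normalized counts in resistant 1, against 18663, 20097 and 21135 in resistant 2. FN1, fibronectin, had 1727100, 1580400 and 1347400 normalized counts in resistant 1, against 5674200, 6268800 and 5180700 in resistant 2. FN1 took 1.01% to 1.26% of the restored reads of a resistant 1 library and 3.57% to 4.1% of a resistant 2 library. CDH2, N-cadherin, averaged 3472 ± 302 in resistant 1 and 11254 ± 537 in resistant 2, and the repressor gene ZEB1 averaged 5456 ± 418 in resistant 1 and 9013 ± 759 in resistant 2. VIM, vimentin, did not go with them: it averaged 128400 ± 13474 in resistant 1 and 117150 ± 18056 in resistant 2 and was not called (limma adjusted p = 0.277), though without resistant 2 replicate 1 it was, at a log2 fold change of 0.26 (0.0199).

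Matrix genes were split by member. Collagens were lower in 16 and higher in 8 of 31 tested, laminins and basement membrane genes lower in 8 and higher in 5 of 14, and integrins lower in 11 and higher in 5 of 21. Over all genes 29% were lower and 29.2% higher. COL12A1, a fibril-associated collagen, had 1228, 1614 and 1301 normalized counts in resistant 1, against 140180, 146890 and 138230 in resistant 2. COL5A1 averaged 156 ± 22 in resistant 1 and 23885 ± 5187 in resistant 2, and the integrin subunit gene ITGB8 averaged 583 ± 39.1 in resistant 1 and 13212 ± 3159.5 in resistant 2. NID2, a basement membrane nidogen, was higher, at 23446 ± 1711 in resistant 1 and 5879.5 ± 714 in resistant 2. Among the matrix proteases MMP1, an interstitial collagenase, had 229570, 174430 and 203790 normalized counts in resistant 1, against 8404, 6124 and 5975 in resistant 2. MMP2, a gelatinase, had 1793, 1958 and 2183 normalized counts in resistant 1, against 85835, 116000 and 149630 in resistant 2. The collagenase was thus higher and the gelatinase lower in resistant 1, both without overlap, which held for 60.5% of all genes. Matricellular proteins were lower in 6 and higher in 3 of 19, so that 47.4% were called, below the 58.2% of all genes. SPARC, a secreted collagen-binding member, averaged 12705 ± 793 in resistant 1 and 628 ± 175 in resistant 2, and 567 ± 21.8 in parental cells.

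**Figure D3:**
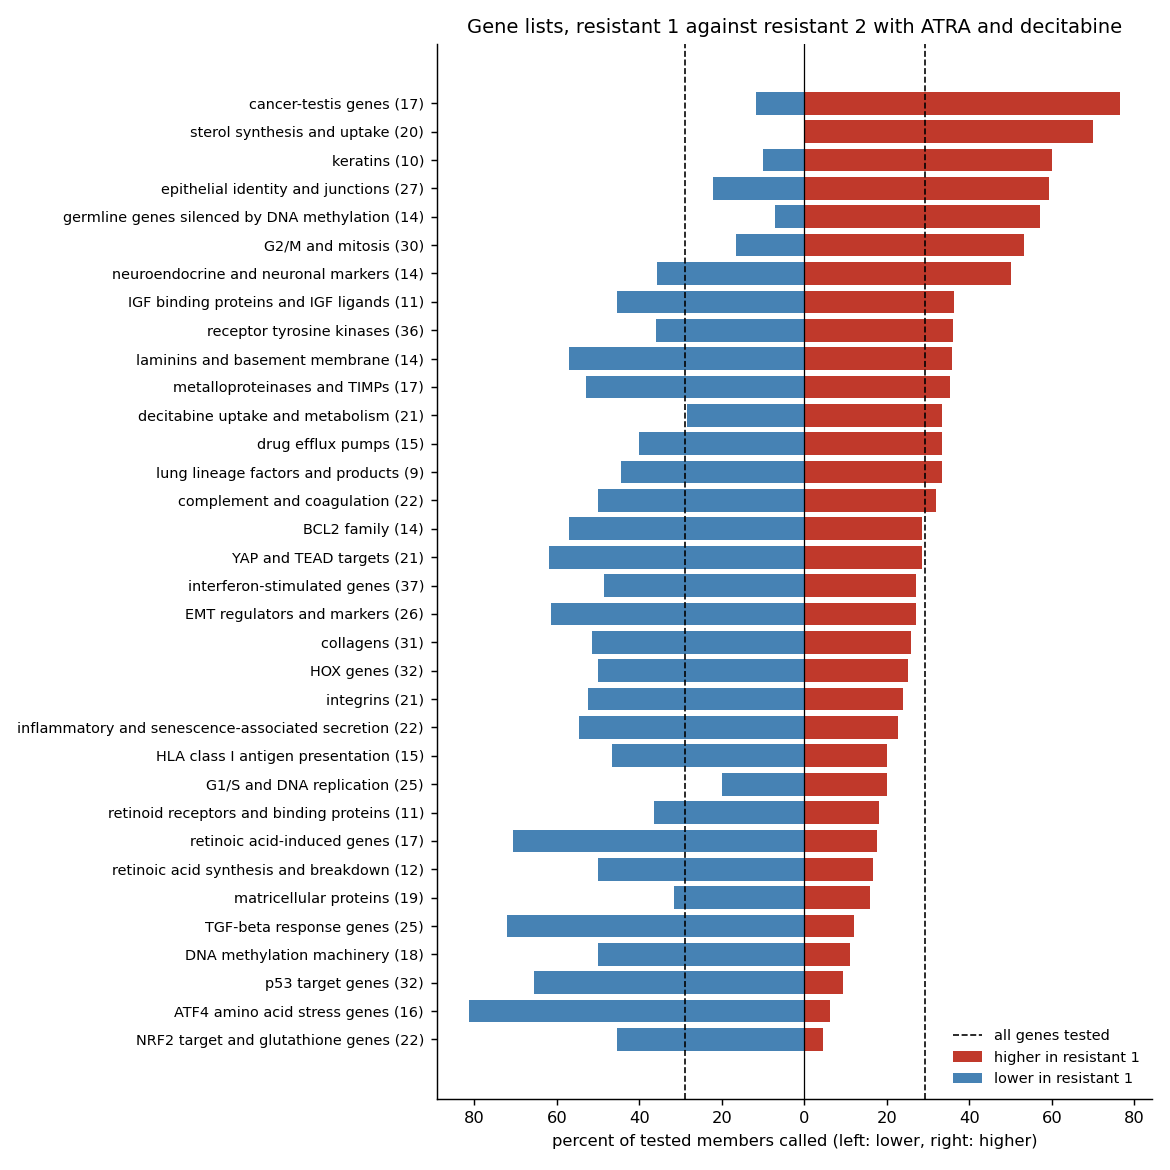
Percent of the tested members of each gene list (number tested in brackets) called higher in resistant 1 (right) or lower (left) with ATRA and decitabine, with dashed lines at the 29.2% and 29% of all genes tested. Cancer-testis genes reach furthest to the right and ATF4 amino acid stress genes furthest to the left, and lists with fewer than 9 tested members are not drawn.

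Markers of other cell types were read in the same libraries. The 6 of 12 fibroblast markers with a value had summed normalized counts of 2495 to 4640 in resistant 1 libraries and 5520 to 8046 in resistant 2 libraries, with COL3A1 and POSTN lower and PDGFRA, THY1 and COL6A3 higher in resistant 1. The 5 of 12 immune markers summed to between 54.95 and 90.2 in resistant 1 and between 166.9 and 196.7 in resistant 2, with MS4A1 at 0 in all 6 libraries and CD3D at most 3.34. The 7 of 11 endothelial markers summed to between 767.5 and 1078 in resistant 1 and between 518.1 and 687.2 in resistant 2. The 8 of 9 epithelial markers summed to between 399798 and 529907 in resistant 1 and between 179614 and 231309 in resistant 2, led by keratins. Of 8 lung lineage markers 3 had a value, and SFTPB, a surfactant protein gene, was at most 4.59 in any of the 6 libraries. The 5 of 7 neuroendocrine markers summed to between 11198 and 11888 in resistant 1 and between 9581 and 11985 in resistant 2, with NEUROD1 at 0 in all 6. The part of other cell types in the matrix and junction results was not tested.

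Genes of mitosis were more often higher in resistant 1, 16 of 30 against 5 lower (median log2 fold change 0.32), while of 25 genes of G1/S and DNA replication 5 were higher and 5 lower. The shares of all genes were 29.2% higher and 29% lower. The replication count hung on single libraries, with 9 members higher and 1 lower without resistant 2 replicate 3, and 10 lower without resistant 2 replicate 1. MKI67, a proliferation antigen, had 37230, 42848 and 32359 normalized counts in resistant 1, against 19462, 22324 and 26816 in resistant 2, and 67027 ± 4019 in parental cells. CDK1, the mitotic kinase, averaged 26067 ± 3656 in resistant 1 and 14725 ± 2617 in resistant 2. CCNB2 and PRC1, also of mitosis, were lower by -0.73 and -1.02 on the log2 scale.

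Of 32 p53 target genes 21 were lower in resistant 1 and 3 higher (median log2 fold change -0.47), so that 75% were called, beside 58.2% of all genes (29.2% higher and 29% lower). CDKN1A, the p21 inhibitor of the cell cycle, had 71776, 73754 and 77515 normalized counts in resistant 1, against 125120, 116260 and 107950 in resistant 2. The nuclease gene AEN averaged 10695 ± 164 in resistant 1 and 29171 ± 553 in resistant 2. Of 16 genes of the ATF4 amino acid stress response 13 were lower and 1 higher (median -0.65, 87.5% called), the one being ATF3. SHMT2, which splits serine in mitochondria, averaged 50636 ± 736 in resistant 1 and 96196 ± 3014 in resistant 2. Of 22 NRF2 target and glutathione genes 10 were lower, 1 was higher and 11 were not called (50% called), and the lower ones included the aldo-keto reductases AKR1C2 and AKR1C3 at log2 fold changes of -3.39 and -2.98, which are close copies whose reads may mix.

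Of 20 genes of sterol synthesis and uptake 14 were higher, 0 lower and 6 not called by limma (median log2 fold change 0.39), beside 29.2% higher and 29% lower of all genes; at an unadjusted p under 0.05 1 was lower, and edgeR called 1 lower. LSS, which closes the sterol ring system to make lanosterol, had 1649.7, 1864 and 2151 normalized counts in resistant 1, against 1219, 954 and 1166 in resistant 2 (log2 fold change 0.76 ± 0.12 SE, limma adjusted p = 0.000189). MVD, a decarboxylase of the mevalonate pathway, had 1477, 1778 and 2515 normalized counts in resistant 1, against 1386, 949.8 and 1365 in resistant 2 (log2 fold change 0.63 ± 0.19 SE, limma adjusted p = 0.0132). The 3 resistant 1 libraries were above the 3 resistant 2 libraries in both genes, as in 30.5% of all genes. The MVD call was lost in the fit of the 6 libraries alone (limma adjusted p = 0.0546), without resistant 1 replicate 3 (log2 fold change 0.41, limma adjusted p = 0.0525) and without resistant 2 replicate 2 (0.45, limma adjusted p = 0.06).

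Immune and secreted factors split by member. Interferon-stimulated genes were lower in 18 and higher in 10 of 37 tested, and genes of HLA class I presentation lower in 7 and higher in 3 of 15. Beside these and the next lists stand 29% lower and 29.2% higher of all genes. IFI44L had 35.2, 42.3 and 19.1 normalized counts in resistant 1, against 1473, 1325 and 1354 in resistant 2. TRIM22, an antiviral ligase, averaged 1839.6 ± 139 in resistant 1 and 11085 ± 416 in resistant 2, and B2M, the light chain of HLA class I, averaged 74996 ± 6131 in resistant 1 and 183370 ± 10153 in resistant 2. Complement and coagulation genes were lower in 11 and higher in 7 of 22, with the central component C3 at 1575 ± 610.0 in resistant 1 and 32958 ± 5423 in resistant 2 and the terminal component C5 at 5794 ± 678 in resistant 1 and 767 ± 83 in resistant 2. Genes of inflammatory secretion were lower in 12 and higher in 5 of 22. The chemokine gene CXCL6 had no read in resistant 2 and was at least 10.49-fold higher in resistant 1. VEGFA, the vascular growth factor, averaged 11506 ± 672 in resistant 1 and 58541 ± 6984 in resistant 2, and EREG, a ligand of the EGF receptor, averaged 2688 ± 281 in resistant 1 and 164 ± 50.7 in resistant 2. These went opposite ways, VEGFA lower and EREG higher in resistant 1. Among 36 receptor tyrosine kinases 13 were higher and 13 lower, with EGFR at 37744 ± 3579.9 in resistant 1 and 19320 ± 2438 in resistant 2.

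The remaining lists also had calls in both directions, beside 29.2% higher and 29% lower of all genes. YAP and TEAD targets were lower in 13 and higher in 6 of 21 tested, HOX genes lower in 16 and higher in 8 of 32, BCL2 family genes lower in 8 and higher in 4 of 14, and metalloproteinases with their inhibitors lower in 9 and higher in 6 of 17. The BCL2 family count of higher members was 2 without resistant 1 replicate 2 or 3, resistant 2 replicate 2 or parental replicate 3. BCL2, an inhibitor of apoptosis, was lower by -0.86 on the log2 scale and the homeobox gene HOXA11 by -2.49. Neuroendocrine and neuronal markers were higher in 7 and lower in 5 of 14. IGF binding proteins and ligands were lower in 5 and higher in 4 of 11. IGFBP5, which binds insulin-like growth factors, had 3893, 4138 and 3013 normalized counts in resistant 1, against 332870, 340560 and 309490 in resistant 2. IGFBP2, of the same family, went the other way, at 68014 ± 8229 in resistant 1 and 17883 ± 3493 in resistant 2.

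The same contrast with DMSO came from other libraries and another table. There 53.4% of 21643 genes passed, 27.4% higher and 26% lower in resistant 1. Of 18304 genes tested in both, 4225 were higher with drugs and with DMSO, which is 82.1% of the higher calls with drugs and 84.3% of those with DMSO, and 4346 were lower in both (77.4% and 88.5%). A further 23 were higher with drugs and lower with DMSO, and 10 the reverse. The restoration of the drug-treated values started from each population's DMSO level, so part of this likeness is built in.

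A test of the difference between the contrasts, on log2(CPM + 1) over 19996 genes, called 964 (4.82%). In 654 genes (3.27%) the resistant 1 minus resistant 2 contrast was higher with drugs than with DMSO, and in 310 (1.55%) it was lower; without resistant 1 DMSO replicate 1 or 2, or resistant 2 DMSO replicate 2, the count of lower ones was 199, 189 and 204, and without resistant 2 drug-treated replicate 1 it was 476. CPM is a read count scaled to the size of its library, and adding 1 damps genes well below 1 CPM. The contrast shrank most for MAGEA4. With drugs MAGEA4 had 337, 350.2 and 379.6 CPM in resistant 1 and 14.3, 13.5 and 13.1 CPM in resistant 2, against 465, 479.6 and 498 CPM in resistant 1 and 0.287, 0.13 and 0.0479 CPM in resistant 2 with DMSO. The difference was -4.10 ± 0.11 on the log2 scale (SE, limma adjusted p = 2.62e-12). All 3 resistant 2 libraries with drugs were above all 3 with DMSO, and resistant 1 was somewhat lower with drugs.

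SSX1, SPARC and HYAL1 had shrinking contrasts too, with differences of -1.91, -1.79 and -1.55. SPARC in resistant 2 had 3.33, 3.84 and 5.68 CPM with drugs, against 0.197, 0.214 and 0.316 CPM with DMSO, while resistant 1 libraries held 72.5 to 93.5 CPM under both treatments. HYAL1, a hyaluronidase, had 10.9, 10.3 and 11 CPM in resistant 1 and 2.14, 1.11 and 1.65 CPM in resistant 2 with drugs, against 18.5, 18.1 and 19.7 CPM in resistant 1 and 0.52, 0.428 and 0.566 CPM in resistant 2 with DMSO. In HYAL1 both populations were thus nearer to each other with drugs.

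In another set of genes the low population was resistant 1. IGFBP5 had 27.1, 29.5 and 21.4 CPM in resistant 1 and 2272, 2289.8 and 2135 CPM in resistant 2 with drugs, against 2.44, 2.46 and 2.11 CPM in resistant 1 and 2786, 2991 and 3009 CPM in resistant 2 with DMSO (difference 3.40 ± 0.20 SE, limma adjusted p = 7.12e-08). LOX, which cross-links collagen, had a difference of 1.59, COL12A1 of 1.39, the blood cell adaptor gene HCLS1 of 1.67 and GDPD5, a phosphodiesterase, of 1.91. In all 5 genes each resistant 1 library had more CPM with drugs than any resistant 1 library with DMSO. Resistant 2 libraries also lay apart between treatments in some of them. COL12A1 in resistant 2 had 957, 988 and 954 CPM with drugs, against 1460.4, 1745 and 1844 CPM with DMSO, and in resistant 1 8.54, 11.5 and 9.23 CPM with drugs, against 5.83, 6.51 and 5.81 CPM with DMSO. LOX in resistant 2 had 13.5, 12.4 and 14.3 CPM with drugs, against 27.7, 23.2 and 25.7 CPM with DMSO. Resistant 2 libraries with drugs were thus all below those with DMSO in COL12A1, LOX and IGFBP5. TGM2, with a difference of 1.19 (limma adjusted p = 0.0261), was higher with drugs in both populations, and its call was lost when any 1 of 6 libraries was left out, for example at 0.96 (0.0685) without resistant 1 DMSO replicate 1.

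Some contrasts were called with drugs and not with DMSO. CPA4, a carboxypeptidase, had a log2 fold change of 1.70 with drugs and 0.04 with DMSO (limma adjusted p = 2.48e-06 and 0.884), a difference of 1.68. In resistant 2 CPA4 had 118, 104 and 91.3 CPM with drugs, against 243, 370.0 and 350.4 CPM with DMSO. TDRD12, of the piRNA pathway, had 2.50, 5.20 and 3.06 CPM in resistant 1 and 0.308, 0.627 and 0.677 CPM in resistant 2 with drugs, where no library of either population with DMSO exceeded 0.249 CPM. ESRP2 was called alike, with a difference of 1.47 and at most 0.124 CPM in any of the 6 libraries with DMSO. IGFN1, an immunoglobulin-domain protein, changed sides, with a log2 fold change of -0.46 with drugs and 1.05 with DMSO (limma adjusted p = 0.0115 and 0.0008), where the call with drugs was lost without resistant 1 replicate 1 (-0.34, 0.0543).

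**Figure D4:**
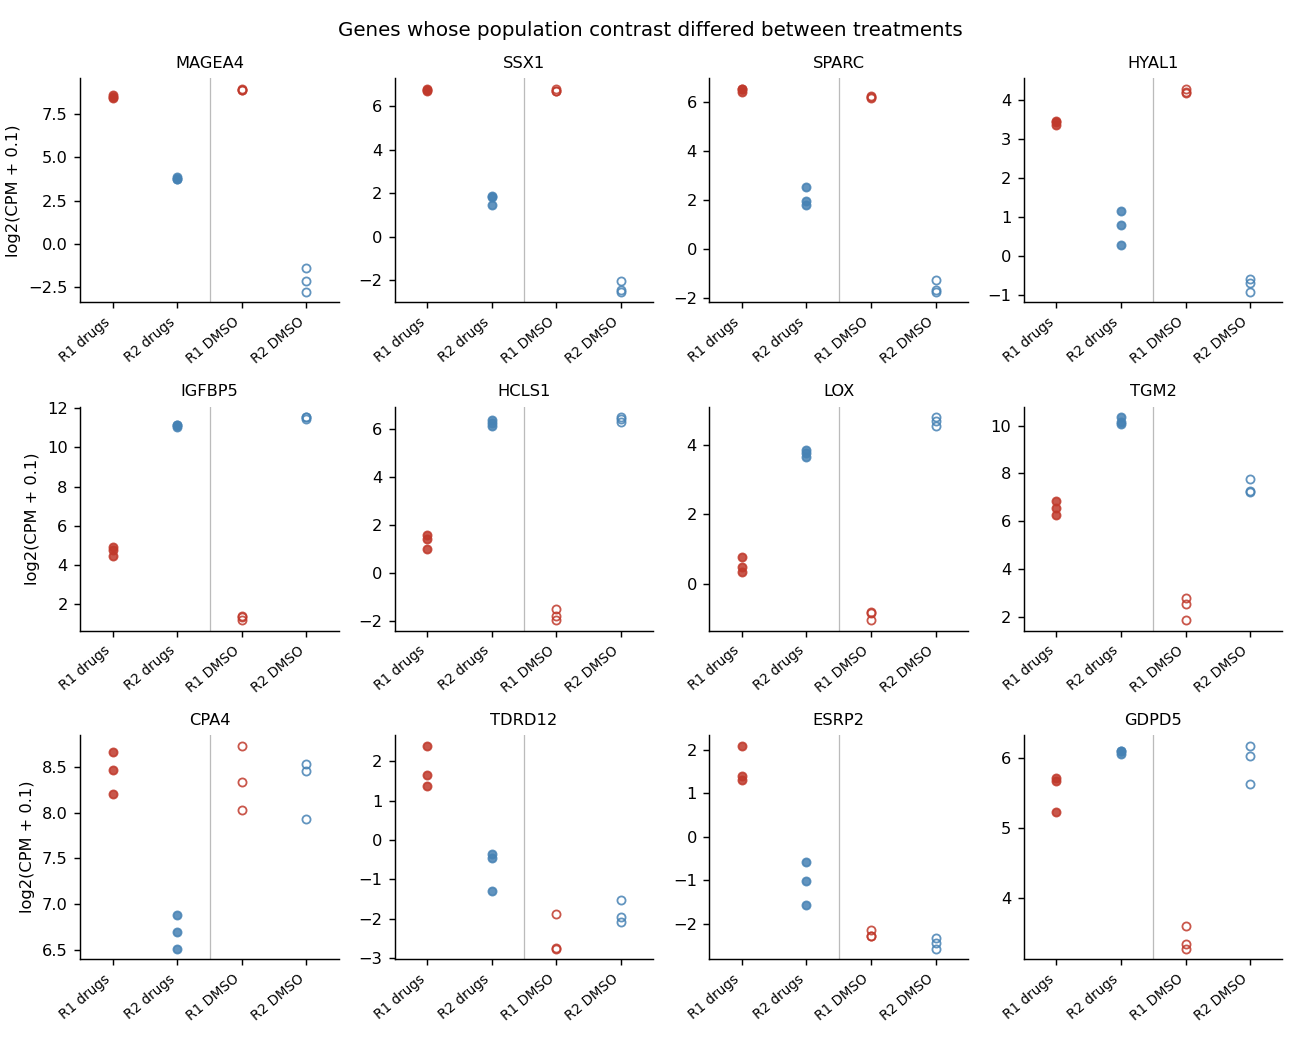
Levels of 12 genes as log2(CPM + 0.1) (y axis, each panel on its own scale), with 1 dot per library, in resistant 1 (R1) and resistant 2 (R2) with ATRA and decitabine (drugs, filled) and with DMSO (open). For MAGEA4, SSX1, SPARC and HYAL1 the populations lie closer with drugs, with the resistant 2 dots higher than with DMSO; for IGFBP5, HCLS1, LOX and GDPD5 they lie closer with the resistant 1 dots higher, and for IGFBP5 and LOX also with the resistant 2 dots lower; for CPA4, TDRD12 and ESRP2 they lie further apart.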

How the data were processed

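RNA sequencing of 18 libraries was deposited as 2 tables of normalized counts, 9 drug-treated and 9 DMSO libraries, each scaled apart. Per the submitters' processing notes the authors used FastQC, MultiQC, STAR, featureCounts, DESeq2 and GRCh38 (hg38), with versions not given in the sources used here. Libraries came from a stranded mRNA kit per the labels, while the strand setting of the counting is not given, so overlapping and antisense genes are uncertain.

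The DMSO table as deposited holds a signal, counts over a size factor, from which whole reads were recovered (100% of values within 0.01 read). In the deposited drug-treated table the decimal points were lost, so the design assumed another unit than the file held. Each value there was restored as whole reads times the worth of 1 read, with the power of 10 taken from a model that starts from the same population's DMSO level and a response learned from the data, and kept at a probability of 0.99 or more. Of 25151 genes that reached 10 normalized counts in 3 libraries, 5245 were left out. Restoration reached 46.8% of genes below a mean of 30 normalized counts and 95.8% from 1000 upward. Run on DMSO values with points removed, the method gave a wrong value in 2 of 15257 genes, a check that is not independent. The form of the model was chosen after results were seen.

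limma 3.58.1 (R 4.3.3) was fitted to log2(normalized count + 1) with a trend over the 9 libraries of a table, and to log2(CPM + 1) with TMM scaling over 18 libraries for the difference between treatments. On simulated counts of 19533 genes the drug-treated contrast found 41.7% of genes changed 1.5-fold, 76% changed 2-fold and 98% changed 4-fold, and 5.99% of calls were false. Only 48 to 50 genes were changed per fold and 167 genes were called, against 58.2% of genes in the data. The restoration was not simulated, so these shares may not hold for the data. edgeR 4.0.16 and DESeq2 1.42.0 on reads, other scalings, filters, pseudocounts, restorations and leaving out libraries were the alternatives. Deviations of same-numbered DMSO libraries of resistant 1 and resistant 2 correlated at 0.158, 0.549 and 0.561. Resistant 1 replicate 1 correlated more with resistant 2 replicate 2 (0.375), so the numbers do not pair all DMSO libraries. Drug-treated libraries did not pair throughout either, and the labels name no shared culture or day. The fits reported had no block. With the replicate number as a block, no count of calls over all genes moved by over 1.5 times. No replicates agreed within sampling noise, as the chi-square over its degrees of freedom lay between 9 and 113. Named genes were the 12 largest called changes in each direction among protein-coding genes with a mean of at least 50 normalized counts and no overlap, up to 4 called members of each list, a fixed set of further genes and the 6 largest differences between treatments in each direction; zinc-finger groups and promoters were picked after values were seen. The members, lists and tests were chosen with earlier results of these data known. Results of some named genes are not reported here. Promoters are from RefSeq GRCh38.p14.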

Additional observations from a re-analysis of the deposited data

Results flagged for a closer look

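Among the named genes reported here, 38 had a contrast between resistant 1 and resistant 2 that differed between drugs and DMSO by a test of the difference itself (limma on log2(CPM + 1), adjusted p under 0.05). The numbers in brackets are the log2 contrast of resistant 1 over resistant 2 with drugs minus the same with DMSO, and a positive one says that the contrast was higher with drugs.

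The difference was positive and was also called by edgeR on reads for IGFBP5 (3.40), GDPD5 (1.91), CPA4 (1.68), HCLS1 (1.67), TDRD12 (1.66), LOX (1.59), ESRP2 (1.47), COL12A1 (1.39), ITGB8 (1.26), TGM2 (1.19), DHRS3 (1.13), AKR1C2 (0.93), FSTL4 (0.91), LAMA3 (0.90), RARB (0.75), HOXA11 (0.58) and NTRK2 (0.41). It was negative and also called by edgeR for MAGEA4 (-4.10), SSX1 (-1.91), SPARC (-1.79), HYAL1 (-1.55), IGFN1 (-1.47), HOXA3 (-0.80), CCNB2 (-0.56), MAGEA11 (-0.50), FABP5 (-0.46) and PASD1 (-0.45). Some of these calls were not stable in limma. The call of NTRK2 was lost when any 1 of 11 libraries was left out, for example at 0.39 (limma adjusted p = 0.114) without resistant 1 DMSO replicate 2. That of RARB was lost when any 1 of 6 libraries was left out, for example at 0.69 (limma adjusted p = 0.0741) without resistant 2 DMSO replicate 2. That of MAGEA11 was lost without resistant 2 drug-treated replicate 2 or 3, at -0.47 and -0.44 (limma adjusted p = 0.0551 and 0.0559), and that of HOXA11 without resistant 1 DMSO replicate 2, at 0.56 (limma adjusted p = 0.0502). In a fit of the 12 resistant libraries alone the calls of NTRK2, RARB, TGM2, MAGEA11 and FABP5 were lost, and with a pseudocount of 5 those of NTRK2, RARB, TGM2, MAGEA11 and FSTL4.

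For a further set edgeR had the same direction without a call: CALCA (-0.60), FZD10 (-0.66), PEG3 (1.21), SLITRK6 (0.97) and THY1 (0.95). The direction was opposite with edgeR, again without a call there, for CDH5 (-0.83), FOXA3 (0.35), ISLR2 (-1.61), ITGAL (0.18), PECAM1 (-0.27) and SLC12A3 (1.98). The PECAM1 call was lost when any 1 of 9 libraries was left out, for example at -0.24 (limma adjusted p = 0.102) without resistant 2 DMSO replicate 2. All genes of these 2 sets except SLITRK6 lay at or below 1.3 CPM in both populations with DMSO, where adding 1 to the CPM damps a contrast. Damping also reached genes called by edgeR whose low population was under 1 CPM. On log2(normalized count + 1) the PASD1 contrast was 8.87 with drugs and 13.03 with DMSO, beside a difference of -0.45. That of HCLS1 was -5.03 and -8.72, beside 1.67. The order of the bracketed sizes is thus uncertain.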

How the results depend on the processing

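Under the alternatives run for the contrast with drugs, 4177 to 6167 genes were higher and 4559 to 5835 lower in resistant 1. The share of higher among the calls was 47.8% to 52.2%, against 50.2% as reported, so neither direction prevailed, and 87.8% to 100% of the calls that could be tested were kept. Shares of 99.9% and 100% came from settings that refit the same restored values on another set of genes. The lowest counts came from a stricter probability in the restoration, which left 14632 genes. With a fixed wide prior for the drug response 5857 were higher and 5806 lower, and with the mean of 2 models 5368 and 5361; both were chosen after seeing the data. The count of contrasts lower with drugs than with DMSO was 310, and was 178 in a fit of the 12 resistant libraries and 189 to 476 leaving out single libraries. That of contrasts higher with drugs was 654, and 473 to 690 leaving out single libraries. With edgeR on reads these counts were 363 higher and 203 lower; the cause was not tested. Single values that changed direction were DNMT3B, at -0.13 to 0.13 leaving out single libraries (0.06 without resistant 2 replicate 3) and 0.0176 with DESeq2, and the edgeR differences of CDH5 (0.67), FOXA3 (-1.07), ISLR2 (0.28), ITGAL (-0.0558), PECAM1 (1.32) and SLC12A3 (-0.59). FN1 lost its call under quantile normalization, which gives the top gene of every library 1 value. List counts moved by over 1.5 times in 102 cases, most often under stricter restoration, which covered fewer genes.

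Same-numbered drug-treated libraries correlated at 0.0537, 0.226 and 0.388, so the numbers were not taken to pair them. The DMSO pairs correlated at 0.158, 0.549 and 0.561. There resistant 1 replicate 1 correlated more with resistant 2 replicate 2 (0.375), so the pairing is unsettled. With the replicate number as a block 5867 genes were higher and 5833 lower with drugs, 5603 and 5300 with DMSO, and the difference was called in 729 and 350 genes; DCK then missed the threshold with drugs (limma adjusted p = 0.0505), and 1 sterol gene was lower.

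Depth limits genes near 0 reads, and the 20.9% of genes left out by restoration are more often low or far apart between populations (66.03% restored at a log2 fold change with DMSO of 3 to 6 in size), so list counts cover part of each list.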
